A study of Mus musculus with 14 samples.

Results

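S100 proteins are small EF-hand calcium-binding proteins of vertebrates, and the 9 described here are S100a4, S100a6, S100a8, S100a9, S100a10, S100a11, S100a13, S100a14 and S100a16. They were taken by gene symbol from a table of 55228 symbols over 14 libraries, where 26607 symbols were counted at all, and each of the 9 was counted and passed the filter on low counts. RNA came from cultured epidermal cells of Lrig1CreER/Rosa-TdTomato mice, in which cells descended from Lrig1-expressing progenitors of the upper hair follicle carry TdTomato and those positive for the surface antigen Sca1 were sorted. Cells came from the distal memory region of the tail (6 libraries), set against a control, non-memory region (8 libraries). All 14 libraries share this genotype, a treatment label of none, a label time of 8w pw1 and 1 week in keratinocyte medium before RNA was made. The CreER allele confines the label to the Lrig1 lineage, so the sort was aimed at that lineage and not at other cells of each region. Genes of other cells, such as fibroblast collagens, were still counted in some libraries, as described below. Levels are those after culture. No label ties libraries to separate animals or cultures, so p-values speak to the spread among these 14 libraries alone, part of which may be technical.

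An S100 monomer has a pair of EF-hands, and in most members calcium opens a hydrophobic face that binds target proteins such as annexins, cytoskeletal proteins and kinases. S100a10 is the exception that no longer needs calcium and forms a complex with annexin A2 at membranes. Several members also leave cells and act on receptors such as Tlr4 and Ager, and S100a8 with S100a9 is a classical alarm signal of neutrophils and of wounded or inflamed keratinocytes. Most S100 genes lie together in and beside the epidermal differentiation complex, the gene cluster that also holds the genes of the cornified envelope.

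Total counts were 2137934 to 4513518 in distal and 4515646 to 7458872 in control libraries, with no overlap, and depth and region cannot be told apart. Libraries belong to 2 sets in each region (distal 2 and 4 libraries, control 6 and 2), no set holds both regions, and set and region cannot be told apart either. Keratinocyte genes were high in every library, with summed levels of 23512 to 33244 CPM (counts scaled by library total, with TMM factors) in distal and 18527 to 27225 CPM in control libraries over 12 markers; Krt15, the member of that list known from the hair follicle bulge, was at 1.171 ± 1.02 CPM in distal and 1.48 ± 1.21 CPM in control libraries (SD, n = 6 and n = 8). Lrig1 itself had 79.1 ± 10.4 CPM in distal and 43.9 ± 9.31 CPM in control libraries, and Ly6a, the gene of the Sca1 antigen, had 1388 ± 155 and 1880.5 ± 525 CPM (SD, n = 6 distal and n = 8 control). Distal replicate 3 and control replicate 1 stood apart in Col1a2 and most other fibroblast collagen genes, and control replicate 8 in some late cornification genes. Results that touch these libraries are given with and without them.

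All 9 genes are on chromosome 3 of GRCm38. From left to right, S100a13 (90514435 to 90524581), S100a14 (90526856 to 90528837), S100a16 (90537254 to 90543151), S100a4 (90603771 to 90606045), S100a6 (90612882 to 90624181) and S100a8 (90668978 to 90670035) are on the plus strand and S100a9 (90692632 to 90695721) is on the minus strand. S100a11 (93520488 to 93526287) and S100a10 (93555080 to 93564643), both on the plus strand, follow 2824766 bases further on and are separated from each other by 28792 bases. S100a13 starts back to back with S100a1, a minus-strand gene that ends its 90511034 to 90514392 interval 42 bases before it. The 100 bases before the RefSeq start of 6 members are shown because neighbours in this cluster behaved differently, from genes that were higher in the distal libraries to S100a8, which was lower. Sequences are those of RefSeq for GRCm38.p6, read 5′ to 3′ on the strand of the gene, and capitals mark the TATA motif TATAAA, the AP-1 motif TGANTCA and the GC box GGGCGG, searched on both strands.
S100a16, chr3:90537154-90537253 (+): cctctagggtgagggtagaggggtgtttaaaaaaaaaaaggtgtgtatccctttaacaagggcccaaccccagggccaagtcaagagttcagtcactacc
S100a6, chr3:90612794-90612893 (+): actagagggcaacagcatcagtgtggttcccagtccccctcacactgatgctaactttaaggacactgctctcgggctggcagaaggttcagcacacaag
S100a13, chr3:90514335-90514434 (+): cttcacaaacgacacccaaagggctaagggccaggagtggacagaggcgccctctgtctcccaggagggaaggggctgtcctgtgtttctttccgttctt
S100a4, chr3:90603670-90603769 (+): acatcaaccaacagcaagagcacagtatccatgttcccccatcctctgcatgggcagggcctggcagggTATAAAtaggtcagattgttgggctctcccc
S100a8, chr3:90668971-90669070 (+): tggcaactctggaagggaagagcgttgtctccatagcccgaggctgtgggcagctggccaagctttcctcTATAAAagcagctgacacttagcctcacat
S100a11, chr3:93520396-93520495 (+): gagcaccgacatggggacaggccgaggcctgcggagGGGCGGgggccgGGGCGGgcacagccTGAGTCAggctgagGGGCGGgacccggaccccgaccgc

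Windows were on hand for 7 members. TATAAA stood 31 bases before the RefSeq start of S100a4 and 30 bases before that of S100a8. This motif was thus shared by a member that was higher and a member that was lower in the distal libraries. The gene interval given above for S100a8 begins at 90668978, so most of its window, TATAAA included, lies inside that interval. Distances hold for the RefSeq starts only. TATAAA occurs in 5.56% of the 32851 annotated windows of this length. The window of S100a11 held no TATAAA but had GGGCGG at 64, 52 and 24 bases before the start (24.7% of all windows hold it) and TGANTCA at 38 bases (2.73% of all windows). The windows of S100a6, S100a16, S100a13 and S100a9 held none of the 3 motifs; the last 42 bases of the S100a13 window are the whole gap between its start and that of S100a1, and S100a16 has a second RefSeq start. These matches describe letters only.

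Of the 9 members, 6 were higher in distal than in control libraries, 1 was lower and 2 did not pass the test. The test was edgeR's two-sided quasi-likelihood test over 11757 genes, with an adjusted p under 0.05 (Benjamini-Hochberg, over all tested genes) as the threshold. Among all tested genes 48.3% passed, 24.3% higher and 24.1% lower, so a pass alone says little about a member. The members' median log2 fold change, distal over control, was 1.10, beside -0.16 over all tested genes. In bulk RNA of this kind, fewer cells of a type and less RNA per cell cannot be told apart. Fold changes in this series also follow the GC content of genes: with a smooth trend in GC content and transcript length removed from each library, 18.9% of 11654 genes passed, 10.4% higher and 8.57% lower, and 5 members were higher and 0 lower, with a median log2 fold change of 0.70 beside 0.03 over all genes. Fewer passed in smaller fits: 3 members, beside 11.6% of all genes, with libraries over 4000000 counts only, and 1 member, beside 2.67% of all genes, with the trend removed and counts summed per set. Values with the trend in place and removed are given below for each member.

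**Figure D1:**
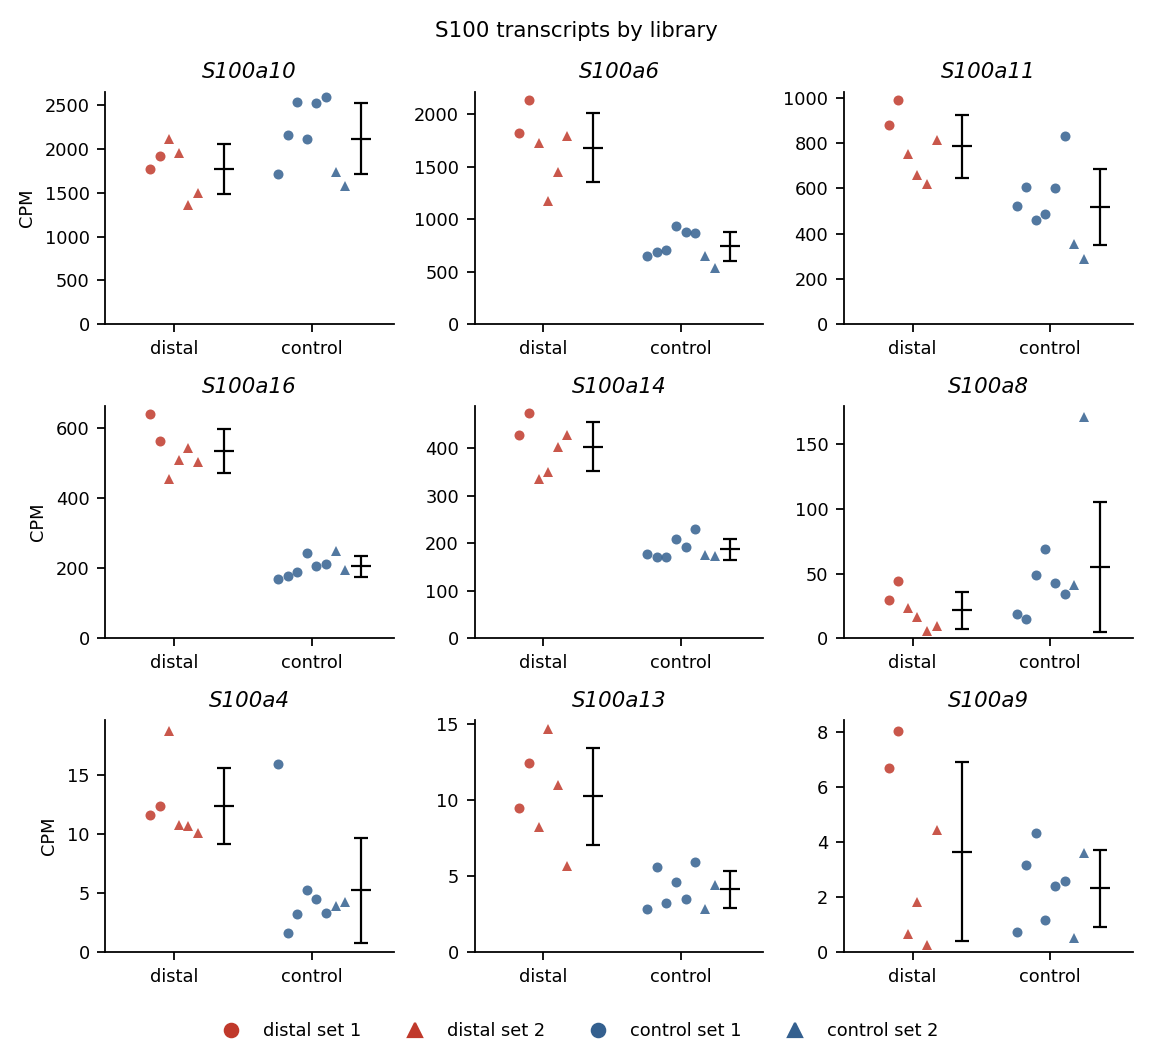
CPM of the 9 S100 genes (y axis, linear, from 0) in each distal and control library (x axis), 1 point per library, with circles for set 1 and triangles for set 2 of a region and bars for the mean ± SD (n = 6 distal, n = 8 control). For S100a16, S100a14 and S100a6 every distal library lies above every control library; S100a10 overlaps in part, and single control libraries stand apart for S100a4 and S100a8.

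S100a16, a widely expressed member, had the largest rise among the members with the trend in place. Its lowest, median and highest levels were 453, 525 and 639 CPM in distal libraries, against 168, 199.95 and 249 CPM in control libraries. Every distal library was above every control library, as in 12.7% of all tested genes. The level was 2.61-fold higher in distal libraries (log2 fold change 1.38 ± 0.13 SE, edgeR adjusted p = 1.60e-06) and the log2 fold change with the trend removed was 0.68 ± 0.10 (edgeR adjusted p = 0.000207). Its transcripts have 54.7% GC, and the median log2 fold change of the 1155 tested genes within 1 percentage point of that was 0.73.

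S100a14, an epithelial member, behaved alike. It had 336, 416 and 474 CPM at the lowest, median and highest of the distal libraries, against 171, 176 and 230.2 CPM in control libraries, and the regions did not overlap. The level was 2.15-fold higher in distal libraries (log2 fold change 1.10 ± 0.12 SE, edgeR adjusted p = 3.56e-06; 0.85 ± 0.10 and adjusted p = 3.16e-05 with the trend removed). At 51.7% GC, the median of the 1226 genes of like GC was 0.16. The spread was small in both regions, with means of 403 ± 52.0 CPM in distal and 188 ± 21.8 CPM in control libraries (SD, n = 6 and n = 8).

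S100a6, also called calcyclin because it was first found in growth-stimulated cells, was the most abundant of the members that rose. Its levels were 1171, 1754 and 2132 CPM in distal libraries, against 539, 699 and 933 CPM in control libraries, in the same order of lowest, median and highest. Again no control library reached a distal one. The level was 2.27-fold higher in distal libraries (log2 fold change 1.18 ± 0.16 SE, edgeR adjusted p = 1.36e-05; 0.70 ± 0.13 and adjusted p = 0.0013 with the trend removed). Genes of its GC content, 53.1%, had a median log2 fold change of 0.47.

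S100a11, a partner of annexin A1 that is abundant in keratinocytes, rose less. It had 620.2, 781 and 991 CPM at the lowest, median and highest of the distal libraries, against 287, 502 and 829.2 CPM in control libraries. The regions overlapped through control replicate 6, the highest control library. The log2 fold change was 0.60 ± 0.20 SE (edgeR adjusted p = 0.0175), and with the trend removed it was 0.73 ± 0.16 (edgeR adjusted p = 0.00402). The call was lost without distal set 1 (0.53, edgeR adjusted p = 0.0751). A pseudogene, S100a11-ps, also had counts and lay at 2.16 ± 1.51 CPM in distal and 10.5 ± 6.94 CPM in control libraries (SD, n = 6 and n = 8), so reads may be shared and S100a11 is uncertain to that extent.

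S100a10, the annexin A2 partner, was the most abundant member in control libraries and did not pass. Its levels were 1361, 1849 and 2116 CPM in distal libraries, against 1571, 2134 and 2591 CPM in control libraries, and the regions overlapped in part. The log2 fold change was -0.26 ± 0.16 SE (edgeR adjusted p = 0.177) and -0.04 ± 0.13 with the trend removed (edgeR adjusted p = 0.877). Among the alternatives run it ranged between -0.35 and 0.10, so its sign was not fixed.

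S100a4, known for binding the heavy chain of non-muscle myosin and widely used as a fibroblast marker, was a low transcript. It had 10.1, 11.2 and 18.8 CPM at the lowest, median and highest of the distal libraries, from 25 to 82 counts, against 1.68, 4.09 and 15.9 CPM in control libraries, from 9 to 84 counts. Control replicate 1 alone reached the distal range. The log2 fold change was 1.23 ± 0.41 SE (edgeR adjusted p = 0.0192) and 1.32 ± 0.41 with the trend removed (edgeR adjusted p = 0.0291). Leaving out distal replicate 3 gave 1.07 (edgeR adjusted p = 0.0509), and 1.16 with the trend removed (adjusted p = 0.0741); leaving out control replicate 3 gave 1.25 with the trend removed (adjusted p = 0.0509). Without distal set 2 it was 1.35 (edgeR adjusted p = 0.110). The gene shares 302 of its 584 exonic bases with the annotated gene Gm42674 on the same strand, so its counts depend on how shared reads were treated.

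Those 2 high S100a4 libraries also had the highest fibroblast gene sums of their regions. The summed level of 13 fibroblast genes was 135 CPM in distal replicate 3 and 17.9 to 54.1 CPM in the other 5 distal libraries, and 270.0 CPM in control replicate 1 and 14.1 to 42.5 CPM in the other 7 control libraries. Col1a2, a collagen chain, had 74.2 CPM in distal replicate 3 and 168 CPM in control replicate 1, beside at most 4.52 CPM in the other distal and 9.23 CPM in the other control libraries. Lum and Dpt were at 0 in all 14. Not all genes of the list followed. Among distal libraries, Col1a1 (8.25 CPM), Col6a1 (12.6 CPM) and Col6a2 (15.1 CPM) were highest in distal replicate 3. Fbln1 (39.7 CPM), Dcn (4.04 CPM) and Col3a1 (2.46 CPM) were highest in other distal libraries. Without distal replicate 3 and control replicate 1, S100a4 lay at 10.1 to 12.4 CPM in the 5 distal and 1.68 to 5.32 CPM in the 7 control libraries. The log2 fold change was then 1.56 ± 0.35 SE, and 1.62 with the trend removed. The 2 libraries left out are also the highest in S100a4 of their regions, so leaving them out narrows both ranges by itself. The part of fibroblast RNA in the difference was not tested.

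**Figure D2:**
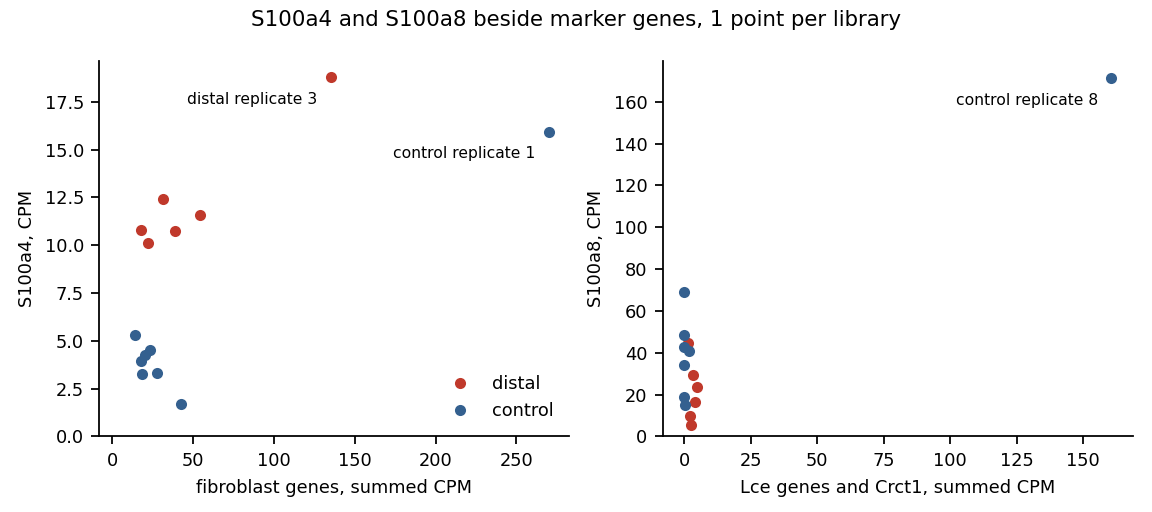
Left, S100a4 in CPM against the summed CPM of 13 fibroblast genes; right, S100a8 in CPM against the summed CPM of 7 late cornification genes (Lce genes and Crct1), 1 point per library, distal in red and control in blue. Distal replicate 3 and control replicate 1 hold the 2 highest values of S100a4 and of the fibroblast sum, and control replicate 8 holds the highest value of S100a8 and of the cornification sum.

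S100a13, which takes part in the leaderless export of Il1a and Fgf1, was lower still, with 14 to 64 counts in distal and 15 to 30 counts in control libraries. Its levels were 5.65, 10.2 and 14.7 CPM in distal libraries, against 2.85, 3.999 and 5.91 CPM in control libraries. Distal replicate 6, at 5.65 CPM, was the distal library that reached the control range. The log2 fold change was 1.31 ± 0.33 SE (edgeR adjusted p = 0.0032), but 0.65 ± 0.33 with the trend removed (edgeR adjusted p = 0.178). Without control set 1 the call was lost (1.49, edgeR adjusted p = 0.0694). Its transcripts have 54.4% GC, and genes of like GC had a median of 0.68. Its back-to-back neighbour S100a1, a further member of the family described here for its place, had 12.95 ± 2.86 CPM in distal and 5.49 ± 1.06 CPM in control libraries (SD, n = 6 and n = 8), with no overlap (log2 fold change 1.23 ± 0.26 SE, edgeR adjusted p = 0.000994; 0.73 and adjusted p = 0.0573 with the trend removed).

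The secreted members S100a8 and S100a9 were 1 member that was lower and 1 that did not pass. S100a8 had 5.65, 19.9 and 44.6 CPM at the lowest, median and highest of the distal libraries, against 15.1, 41.9 and 171 CPM in control libraries, and 4 distal libraries lay within the control range. Its level in distal libraries was 0.391 of that in control libraries (log2 fold change -1.36 ± 0.51 SE, edgeR adjusted p = 0.0367). With the trend removed it did not pass (-0.71 ± 0.51, edgeR adjusted p = 0.367), and genes of its 44.5% GC content had a median of -0.70. The call was lost without control replicate 8 (-0.84, edgeR adjusted p = 0.109) or without any of control replicate 4 (-1.19, adjusted p = 0.0816) and distal replicates 1, 4, 5 and 6 (adjusted p = 0.0505, 0.103, 0.0989 and 0.109).

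Control replicate 8, the highest S100a8 library, was also apart in some late cornification genes. The Lce genes and Crct1, which encode late cornified envelope proteins, summed to 161 CPM in it and to at most 4.81 CPM in each of the other 13 libraries, and the envelope precursor Sprr1a was at 161 CPM there beside 2.68 to 77.5 CPM. S100a8 was at 5.65 to 68.8 CPM in those 13 libraries. Not all cornified envelope genes followed. Among control libraries, Lor and Ivl were highest in others than control replicate 8, at 2.66 and 9.94 CPM. Sprr1b reached at most 46.2 CPM in control and 87.9 CPM in distal libraries. Markers of neutrophils and monocytes, the other main source of S100a8, were few: 7 of 17 (Itgam, Csf3r, Ly6g, Ngp, Retnlg, Adgre1 and Tyrobp) were at 0 in all libraries, and the list summed to 3.44 to 16.1 CPM in distal and 4.82 to 12.5 CPM in control libraries. A count of 0 allows up to 0.447 to 1.21 CPM per library, from 3 counts.

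S100a9, the usual partner of S100a8, was close to the limit of detection. It had 1 to 22 counts in distal and 3 to 29 counts in control libraries, and 0.282, 3.14 and 8.05 CPM at the lowest, median and highest of the distal libraries, against 0.535, 2.51 and 4.32 CPM in control libraries. The distal range enclosed the control range. The log2 fold change was 0.63 ± 0.66 SE (edgeR adjusted p = 0.445), and 1.28 ± 0.68 with the trend removed (edgeR adjusted p = 0.205). Its sign turned with the set kept: it was -0.31 without distal set 1 (edgeR adjusted p = 0.777) and 1.81 without distal set 2 (adjusted p = 0.0576), and -0.89 in libraries over 4000000 counts (adjusted p = 0.558). A difference of S100a9 was not detectable at this depth. The 2 genes also differed in level: per kilobase of transcript, S100a8 was at 43.8 ± 29.1 and S100a9 at 7.10 ± 6.29 CPM in distal libraries, and at 112 ± 101 and 4.504 ± 2.69 CPM in control libraries (SD, n = 6 and n = 8).

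**Figure D3:**
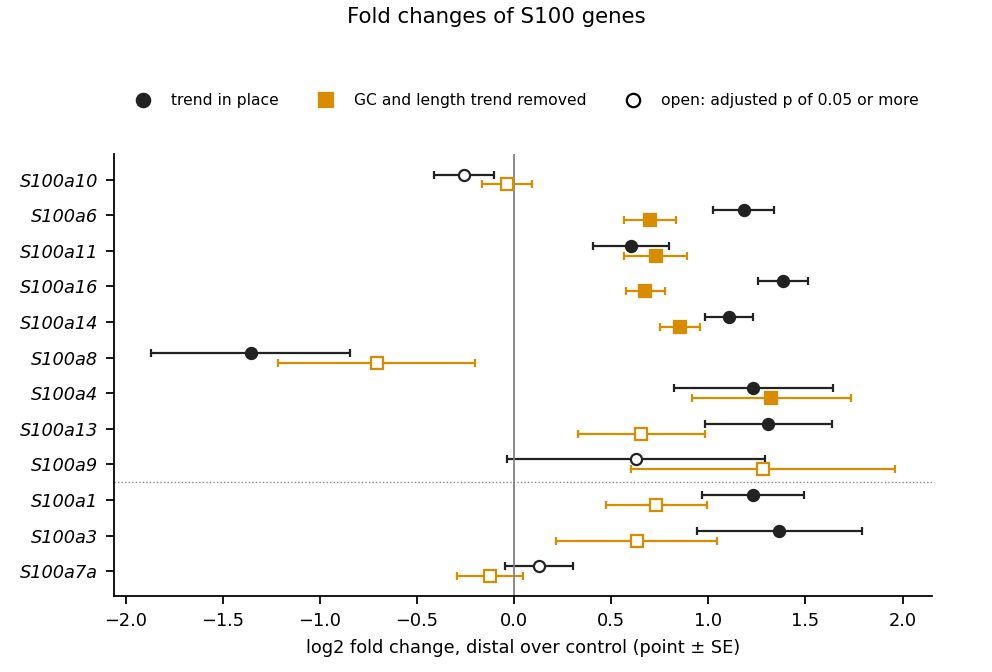
Log2 fold change, distal over control (x axis), of the 9 members and, below the dotted line, 3 further S100 genes, as point ± SE from edgeR with the GC and length trend in place (black) and removed (orange); open symbols did not pass an adjusted p of 0.05. S100a6, S100a11, S100a14, S100a16 and S100a4 pass in both, S100a8 and S100a13 pass only with the trend in place, and S100a9 and S100a10 pass in neither.

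Of the 9 further S100 genes, S100a5 and the S100a7-like gene 9130204L05Rik were at 0 in all libraries, and 3 were tested. S100a1 and S100a3 were higher in distal libraries with the trend in place and did not pass with it removed. S100a3, a hair cuticle protein, was at 7.48 ± 3.27 CPM in distal and 2.88 ± 1.24 CPM in control libraries (SD, n = 6 and n = 8; log2 fold change 1.36 ± 0.43 SE, edgeR adjusted p = 0.0132; 0.63 and adjusted p = 0.320 with the trend removed). S100a7a, the mouse relative of human psoriasin, was at 71.9 ± 18.5 CPM in distal and 65.8 ± 11.2 CPM in control libraries (log2 fold change 0.13 ± 0.18 SE, edgeR adjusted p = 0.563). S100a2, S100b, S100g and S100z had means under 1 CPM in both regions.

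Along the chromosome, the 7 tested genes between S100a1 and S100a6 all passed as higher in distal libraries, as did 24.3% of all tested genes. Their log2 fold changes were between 1.10 for S100a14 and 1.38 for S100a16. Genes of like GC had medians of 0.68 for S100a13, 0.73 for S100a16, 0.47 for S100a6, 0.16 for S100a14 and -0.15 for S100a4. To the right of S100a6, the next tested genes were S100a7a, which did not pass, S100a8, which was lower, and S100a9, which did not pass. With the trend removed, 10.4% of all tested genes were higher. Of the 7 genes from S100a1 to S100a6, S100a14, S100a16, S100a4 and S100a6 then passed, at 0.68 to 1.32. S100a1, S100a13 and S100a3 did not. S100a11 and S100a10, which lie together at the far right, gave 0.60 and -0.26 with the trend in place and 0.73 and -0.04 with it removed.

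**Figure D4:**
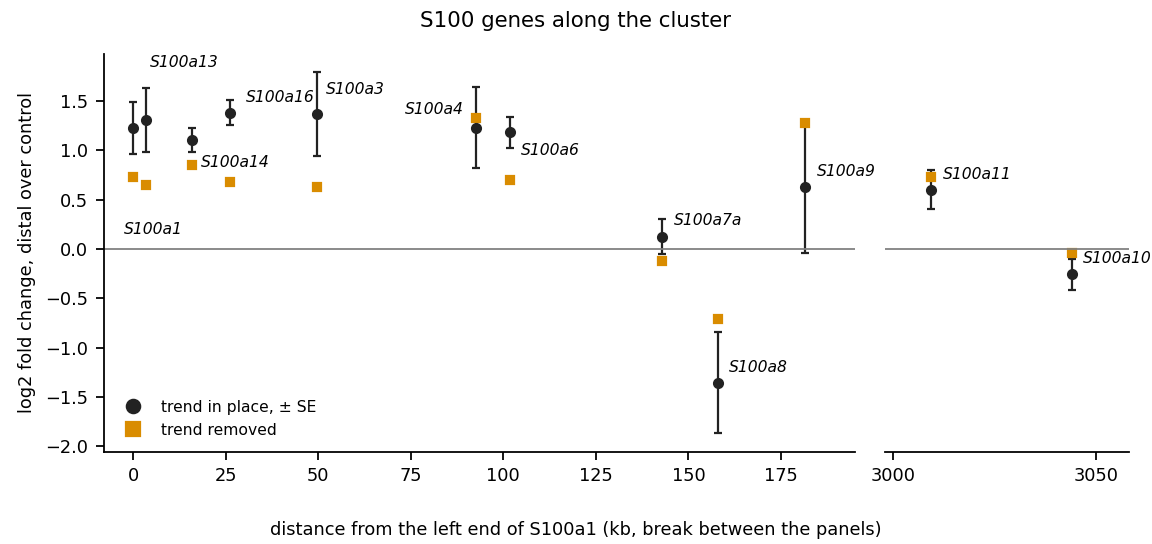
Log2 fold change, distal over control (y axis), of the tested S100 genes against their distance in kb from the left end of S100a1 (x axis, with a break), as black points ± SE with the GC and length trend in place and orange squares with it removed. The genes from S100a1 to S100a6 lie between 1.10 and 1.38 with the trend in place, S100a7a lies near 0 and S100a8 below 0.

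With the GC and length trend in place, the relative make-up of S100 transcripts differed between the regions. Shares were not computed with the trend removed. Genes of the GC content of S100a10 had a median log2 fold change of -0.31, and those of S100a6 had 0.47. The part of the trend in the shares was not tested. The 9 members took 0.5682% ± 0.0998 of all counts in distal and 0.359% ± 0.0647 in control libraries (SD, n = 6 and n = 8). Per kilobase of the median annotated transcript, S100a10 made up 34.6% ± 5.04 of the members' summed level in distal and 54.9% ± 3.04 in control libraries, while S100a6 made up 33.2% ± 3.80 and 19.7% ± 1.93. The ranges did not overlap for either gene: S100a10 had 30.1% to 42.5% in distal and 52.0% to 61.4% in control libraries, and S100a6 had 26.1% to 36.7% in distal and 17.5% to 23.5% in control libraries. S100a11 held 18.2% ± 1.27 and 15.8% ± 3.22, S100a16 8.01% ± 1.20 and 4.17% ± 0.938, and S100a14 4.89% ± 0.663 and 3.06% ± 0.391, in distal and control libraries in that order. S100a8 held 0.494% ± 0.275 in distal and 1.95% ± 2.19 in control libraries (1.20% ± 0.563 without control replicate 8, n = 7), and S100a4, S100a13 and S100a9 each held under 1% in both.

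**Figure D5:**
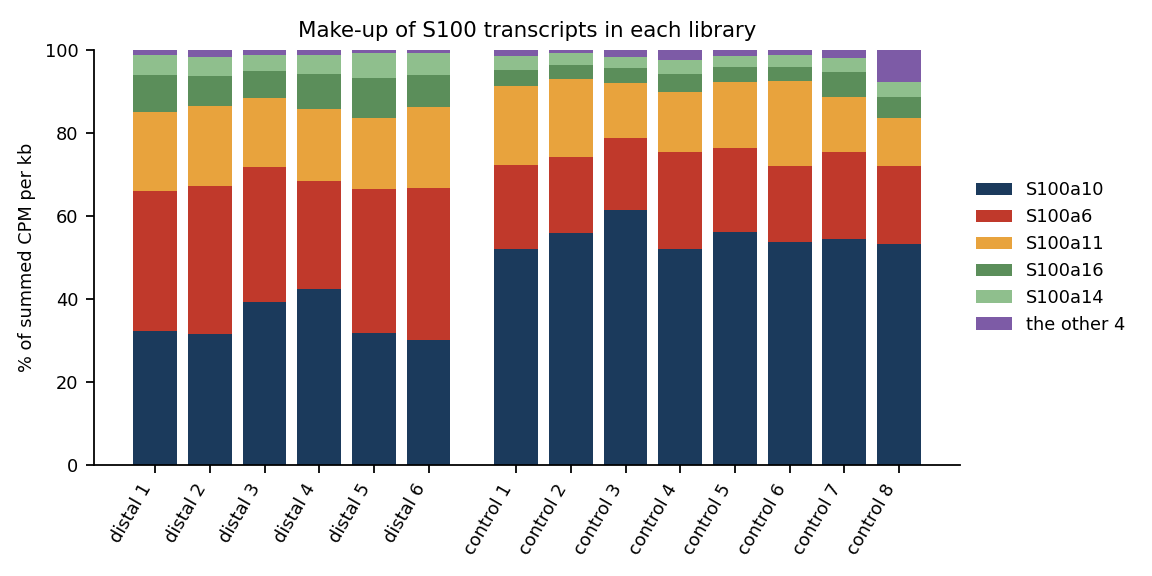
Share of each S100 gene in the summed CPM per kilobase of the 9 members (y axis, percent) in each library (x axis, distal left and control right); the other 4 are S100a8, S100a4, S100a13 and S100a9. With the GC and length trend in place, S100a10 takes 30.1% to 42.5% in distal and 52.0% to 61.4% in control libraries. The top segment is widest in control replicate 8.

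In distal libraries S100a10 and S100a6 led at 2899.7 ± 472 and 2812 ± 555 CPM per kilobase and did not differ beyond their spread. S100a11 (1537 ± 271), S100a16 (667 ± 79.1) and S100a14 (409 ± 52.7) followed as separate steps. In control libraries S100a10 stood alone at 3466 ± 669 CPM per kilobase, and S100a6 (1239 ± 231) and S100a11 (1012 ± 327) did not differ beyond their spread; S100a16 (256 ± 36.1) and S100a14 (190.0 ± 22.1) came next. At the low end, S100a8, S100a4, S100a13 and S100a9 followed each other in both regions, with S100a4 at 29.7 ± 7.75 in distal and 12.65 ± 10.6 in control libraries and S100a13 at 14.3 ± 4.46 and 5.79 ± 1.68; S100a8 and S100a4, and S100a13 and S100a9, overlapped within their SDs in both regions, and S100a4 and S100a13 did so in control libraries. With the longest annotated transcript in place of the median one, S100a6 was at 2146 in distal and 945 in control libraries beside S100a10 at 2586 and 3092, so the near parity of S100a6 and S100a10 depends on the length used, and S100a11 then lay above S100a6 in control libraries.

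Within each library the ratio of a member to S100a10 needs no scaling between libraries. The S100a6 to S100a10 ratio per kilobase was 0.964 in distal and 0.358 in control libraries (geometric means), a log2 difference of 1.43 with no overlap between regions (two-sided exact permutation over 3003 regroupings, unadjusted p = 0.000333, the smallest that these can give, n = 6 and n = 8). The S100a11 to S100a10 ratio was 0.529 in distal and 0.284 in control libraries, a log2 difference of 0.90 (exact permutation, unadjusted p = 0.000666). With the trend removed these differences were 0.73 and 0.79 (exact permutation, unadjusted p = 0.000666 each). The S100a6 ratios of the regions then overlapped, with a lowest log2 value of -0.967 in distal and a highest of -0.893 in control libraries. A ratio of this kind shows that the genes changed unequally, not which of them changed. In all, 9 ratios were computed, a choice made after values had been seen. Those of S100a4, S100a6, S100a11, S100a13, S100a14, S100a16 and Anxa2 had an unadjusted exact permutation p under 0.05 with the trend in place and removed. Those of S100a8 and S100a9 did not in either (exact permutation p = 0.105 and 0.410 with the trend in place). The share of all tested genes that differ in their ratio to S100a10 was not computed, so these passes alone say little about the members.

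Sets of a region were compared to see whether S100 levels shifted between them. The labels name the sets but do not say how they differ. No member passed between distal set 2 and distal set 1 or between control set 2 and control set 1, where 0.00% of all genes passed in either comparison by edgeR. At an unadjusted edgeR p under 0.05, 2 of the 9 members differed between the distal sets (S100a8, log2 difference -1.40, and S100a9, -2.06, set 2 minus set 1). Between the control sets 3 of the 9 did (S100a8, 1.47, S100a10, -0.46, and S100a11, -0.86). Beside these stood 921 and 969 of all 11757 tested genes. DESeq2 called 1 of these, S100a11 between the control sets (log2 difference -0.86, adjusted p = 0.0333), beside 0.340% of all genes by that tool. S100a8 had opposite signs between sets in the 2 regions, a contrast that was not tested, and its mean levels were 13.8 CPM in distal set 2 and 37.1 CPM in distal set 1, and 106 CPM in control set 2 and 38.1 CPM in control set 1. Control set 2 is 2 libraries, control replicate 7 at 40.9 CPM and control replicate 8 at 171 CPM, and without control replicate 8 the control log2 difference was 0.10 (edgeR adjusted p = 0.985).

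Partners of S100 proteins were examined as a list of 20 genes, 17 of them tested. Of these, 9 were higher and 3 lower in distal libraries with the trend in place (median log2 fold change 0.34), beside 24.3% and 24.1% of all tested genes (median -0.16). With it removed, 6 were higher and 3 lower (0.44), beside 10.4% and 8.57% of all tested genes (0.03). Anxa2, the partner of S100a10, was at 4431 ± 572 CPM in distal and 2159 ± 208 CPM in control libraries (SD, n = 6 and n = 8), with no overlap (log2 fold change 1.04 ± 0.12 SE, edgeR adjusted p = 5.73e-06; 0.76 and adjusted p = 5.02e-05 with the trend removed). The Anxa2 to S100a10 ratio per kilobase was 1.76 in distal and 0.722 in control libraries (log2 difference 1.28, exact permutation, unadjusted p = 0.000333). Anxa1, the partner of S100a11, did not pass with the trend in place (-0.17, edgeR adjusted p = 0.310) and was higher with it removed (0.55, adjusted p = 0.0119), so its direction depends on the trend.

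Other partners moved in both directions. Ahnak, a giant scaffold protein that binds the S100a10 and annexin A2 complex, fell to 4232 ± 1056 CPM in distal libraries, against 6952 ± 1083 CPM in control libraries (log2 fold change -0.72, edgeR adjusted p = 0.00184; -1.003 and adjusted p = 0.000778 with the trend removed). Cacybp, the calcyclin-binding protein named for S100a6, was lower with the trend in place (-0.72, edgeR adjusted p = 0.0117) and at 0.09 with it removed (adjusted p = 0.723). Il1a, a cargo of S100a13, was likewise lower only with the trend in place (-0.89, edgeR adjusted p = 0.0457; -0.08 and adjusted p = 0.874 with it removed). Myh9, the myosin heavy chain bound by S100a4, gave -0.07 (edgeR adjusted p = 0.809) with the trend in place, and was lower with it removed (-0.70, adjusted p = 0.0241). Trp53, whose protein binds several S100 proteins, and the receptor kinase gene Erbb2 were higher in both (Trp53 log2 fold change 1.29, edgeR adjusted p = 3.63e-05, and 0.76 with the trend removed; Erbb2 1.39, adjusted p = 1.63e-05, and 0.64). Ppp5c, a phosphatase bound by S100 proteins, was higher with the trend in place (1.31, edgeR adjusted p = 0.000199) and gave 0.44 with it removed (adjusted p = 0.122). With the trend removed, the tubulin gene Tubb5 (0.54, edgeR adjusted p = 0.00187) and Siah1a (0.89, adjusted p = 0.0142) were also higher, and the annexin gene Anxa5 was lower (-0.31, adjusted p = 0.0319).

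Receptors for secreted S100 proteins were examined as a list of 14 genes. Of 9 tested, 4 were higher and 1 lower with the trend in place (median log2 fold change 0.43), beside 24.3% and 24.1% of all tested genes (median -0.16). With it removed, 0 were higher and 1 lower (0.20), beside 10.4% and 8.57% of all tested genes (0.03). The urokinase receptor gene Plaur was at 164 ± 51.9 CPM in distal and 67.8 ± 16.2 CPM in control libraries (SD, n = 6 and n = 8; log2 fold change 1.27, edgeR adjusted p = 4.58e-05; 0.44 and adjusted p = 0.0635 with the trend removed). Bsg, a receptor of S100A8 and S100A9 in human cells, and the syndecan genes Sdc1 and Sdc4 were higher with the trend in place (0.62, 0.58 and 0.40, edgeR adjusted p = 0.00135, 0.00279 and 0.00891). With it removed, Bsg gave -0.23, Sdc4 0.21 and Sdc1 changed sign to -0.51 (edgeR adjusted p = 0.00765). Nptn, a Bsg relative, was lower with the trend in place (-0.77, edgeR adjusted p = 0.0140; -0.53 and adjusted p = 0.125 with it removed). Tlr4 was at 9.07 ± 7.72 CPM in distal and 6.55 ± 4.495 CPM in control libraries and did not pass (0.49, edgeR adjusted p = 0.5685).

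The neighbouring genes of the cornified envelope and the inflammatory genes that often accompany S100a8 and S100a9 were examined as 2 lists. Over all tested genes, 24.3% were higher and 24.1% lower with the trend in place, and 10.4% and 8.57% with it removed. Of 5 tested cornified envelope genes, 0 were higher and 1 was lower with the trend in place: Sprr2h was at 3.31 ± 2.19 CPM in distal and 11.2 ± 4.68 CPM in control libraries (SD, n = 6 and n = 8; log2 fold change -1.73, edgeR adjusted p = 0.00304; -1.70 and adjusted p = 0.00912 with the trend removed). The list's median was 0.38, and 0.07 with the trend removed, when Pglyrp3, a peptidoglycan recognition protein gene, was also higher (0.57, edgeR adjusted p = 0.0439). Of 11 tested inflammatory and antimicrobial genes, 3 were higher and 0 lower with the trend in place (median 0.36), when 24.3% of all genes were higher, and 3 were higher and 0 lower with it removed (0.62), when 10.4% were. The 3 with it in place were the protease inhibitor Slpi (1.09, edgeR adjusted p = 0.00047), the transcription factor Cebpb (1.03, adjusted p = 0.000335) and the RNase Zc3h12a (1.49, adjusted p = 0.0156). With it removed those 3 gave 0.40, 0.03 and 0.73 and did not pass (edgeR adjusted p = 0.248, 0.920 and 0.293). The 3 higher with it removed were others: the defensin gene Defb14 (1.79, edgeR adjusted p = 0.0117), the chemokine gene Cxcl5 (1.29, adjusted p = 0.0293) and the ribonuclease gene Rnase4 (0.62, adjusted p = 0.0352).

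Markers of other cells were lower than keratinocyte genes in both regions but not absent. The melanocyte and Schwann cell list summed to 41.1 to 79.0 CPM in distal and 55.0 to 82.3 CPM in control libraries. Its highest genes were Mbp (means of 32.6 CPM in distal and 28.8 CPM in control libraries) and Mitf (22.1 and 34.0 CPM), while Dct and Sox10 were at 0. No gene of the Langerhans cell and T cell list was tested, 4 of its 9 genes (Cd207, Cd3e, Cd3g and Trdc) were at 0, and it summed to 0 to 5.96 CPM in distal and 0 to 3.604 CPM in control libraries. Of the fibroblast list 3 genes were tested, of the melanocyte and Schwann cell list 3 and of the endothelial list 1, and 0 of these passed in either direction. Of 11 tested keratinocyte genes, 5 were higher and 4 lower with the trend in place, beside 24.3% and 24.1% of all tested genes. The 5 were Sfn (log2 fold change 1.22), Itgb4 (1.29), Krt5 (1.07), Krt14 (1.21) and Cdh3 (0.66). The 4 were Trp63 (-0.92), Itga6 (-0.83), Dsg3 (-0.48) and Perp (-0.49). With the trend removed, 2 were higher and 1 lower (Itgb4 and Cdh3 higher, Itga6 lower), beside 10.4% and 8.57% of all tested genes. The basal keratin Krt14 was at 9224 ± 1917 CPM in distal and 3989 ± 967 CPM in control libraries (SD, n = 6 and n = 8; log2 fold change 1.21, edgeR adjusted p = 3.64e-05; 0.31 and adjusted p = 0.128 with the trend removed). The part of keratinocyte levels in the S100 differences was not tested.

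The genes whose profile over the 14 libraries was closest to a member were found by the root-mean-square difference of centred log2 CPM among the other tested genes with an average log2 CPM of at least 3 (9113, or 9114 for S100a9 and S100a13). Closest to S100a16 were Atp5g1 (0.10), Arhgdia (0.11) and Tpm2 (0.12), closest to S100a14 were Rpl6 (0.10) and Tagln2 (0.11), and closest to S100a6 were Rpl38 (0.13), Rpl32 (0.13) and Uqcrq (0.15). S100a10 was nearest to Wasf2 (0.13), Tmsb4x (0.14) and Chchd1 (0.16), and S100a11 to Rpl21 (0.12), Snrpg (0.13) and Rpl22 (0.16). The low members had no gene so near: the smallest difference was 0.32 for S100a13 (Psmc3), 0.52 for S100a4 (Rarg), 0.67 for S100a9 (Gcdh) and 0.68 for S100a8 (Zbtb6). The median difference over all candidates ran from 0.63 for S100a10 to 1.28 for S100a8. All these profiles share library depth and the GC trend.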

How the data were processed

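Smart-seq2 copies of polyadenylated RNA were made into Nextera XT libraries, per the labels' protocols. The authors deposited raw counts per gene symbol, neither normalised nor pooled; the submitters' processing notes name HISAT2, featureCounts and the build mm10/GRCm38. Strand use and the handling of multi-mapped reads are not given in the sources used here, so overlapping genes, paralogs and pseudogenes are uncertain.

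Counts were fitted with edgeR 4.0.16 under R 4.3.3 (TMM scaling, low counts dropped by filterByExpr, robust quasi-likelihood F test, Benjamini-Hochberg adjustment over 11757 genes) over both regions with no covariate. CPM use TMM-scaled totals. A log2 fold change is distal minus control, and its SE was taken as |log2 fold change| over the root of F. All genes together had a median of -0.16 under TMM, -0.18 under DESeq2 size factors and 0.00 under upper-quartile scaling, and no member that passed changed direction between these scalings. The trend in GC content and log2 transcript length was fitted in each library with natural splines (4 degrees of freedom each) and entered as offsets; 99.1% of tested genes had a GC value. Lengths, GC and positions are from the GENCODE annotation of GRCm38, promoter windows from RefSeq. Comparisons of sets used 1 model of all 4 sets. For the 23 pairs of libraries within a set, chi-square divided by its degrees of freedom was 6.83 to 40.0 (genes with 10 or more counts in a pair), above sampling noise in each, and all libraries were kept.

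The members and the 13 gene lists (168 entries, 3 matched through synonyms, 2 not found) were chosen with earlier results of these data known. All members are named, with the list genes past the threshold (at most 4 with the smallest p in each direction), Anxa2, Anxa1, Cacybp, Myh9 and Il1a, the further S100 genes, and up to 3 genes of nearest profile among those with an average log2 CPM of at least 3. Genes at 0 in all libraries and Krt15, Ly6a, Lrig1, Col1a2, Col1a1, Col3a1, Col6a1, Col6a2, Dcn, Fbln1, Lor, Ivl, Sprr1a, Sprr1b, Crct1, Mbp and Mitf are named outside that rule. Alternatives were other scalings and filters, DESeq2 1.42.0, limma-voom (limma 3.58.1), summed and thinned counts, a replicate block, deeper libraries only, and leaving out sets and libraries. The ratios to S100a10 and the fits without both distal replicate 3 and control replicate 1 were chosen after values were seen. The code was tested on simulated data. Intervals of single counts cover counting error only, and depth limits S100a9, S100a13 and S100a4 most.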

Additional observations from a re-analysis of the deposited data

Results flagged for a closer look

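In 18 combinations of a member and a region, 3 held a library far from the others of its region by Dixon's test; chance flags about 1 in 20 such combinations. S100a4 in distal replicate 3 was at 18.8 CPM, beside 10.1 to 12.4 CPM in the other 5 distal libraries. S100a4 in control replicate 1 was at 15.9 CPM, beside 1.68 to 5.32 CPM in the other 7 control libraries. Both libraries held the highest fibroblast gene sums of their region, at 135 and 270.0 CPM; without both the log2 fold change was 1.56 ± 0.35 SE, beside 1.23 ± 0.41 with all libraries, and the part of fibroblast RNA was not tested. S100a8 in control replicate 8 was at 171 CPM, beside 5.65 to 68.8 CPM in the other 13 libraries; its Lce and Crct1 sum of 161 CPM stood beside at most 4.81 CPM in each of those, and without it S100a8 did not pass (-0.84 ± 0.42 SE, edgeR adjusted p = 0.109). The part of the cornification genes in the S100a8 level was not tested.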

How the results depend on the processing

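Of 295 values of the members' log2 fold changes under alternatives, 263 kept their side of the threshold, 32 lost the call and 0 reversed a call; 5 changed sign, 2 of S100a9 and 3 of S100a10, which did not pass in either case; the lost calls were 18 of 33 for S100a8, 5 of 33 for S100a13, 4 of 32 for S100a4, 3 of 33 for S100a11 and 1 of 33 each for S100a6 and S100a16, while S100a14 lost none of 33. The count of members past the threshold was 7 as reported, 6 with upper-quartile scaling, limma-voom, no filter on low counts or counts summed per set, 3 (all higher: S100a6, S100a14 and S100a16) with libraries over 4000000 counts only, and 1 (S100a14) with the trend removed and counts summed per set; these settings leave 2 distal libraries and 4 summed samples, and all-gene calls also fell, to 821 higher and 544 lower and to 125 higher and 186 lower. With upper-quartile scaling 3255 of all genes were higher and 2202 lower, beside 2853 and 2828. Leaving out single libraries gave 6 to 7 members, 4 to 5 with the trend removed, and 0 to 0 between sets of either region. Between control sets the edgeR count was 0 and the DESeq2 count was 1, S100a11. A block for replicate numbers 1 to 6 gave 6 members, as the same 12 libraries did without a block, and 5 with the trend removed. Same-numbered libraries had correlations of -0.0171 to 0.110. Correlations of differently numbered libraries were not computed, so these values cannot decide whether the numbers pair libraries. The loss of the S100a8 call with the block (-0.88, edgeR adjusted p = 0.178) also occurred in the same libraries without a block (-0.76, adjusted p = 0.175). Per-kilobase levels of S100a6, S100a14 and S100a16 moved with the longest transcript length, to 2146, 240 and 474 in distal and 945, 111 and 182 in control libraries. Depth limits S100a9, with 1 to 29 counts per library. The cause of the moved counts was not tested.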
